A study of Homo sapiens with 22 samples.

Results

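In all, 10 genes of prostaglandin synthesis, action and breakdown were followed in xenograft tumours of the human lung adenocarcinoma cell line H2110. They were chosen by name from the 58735 genes of the count table. PLA2G4A encodes the phospholipase that frees arachidonic acid, PTGS1 and PTGS2 the cyclooxygenases COX-1 and COX-2, and PTGES, PTGES2 and PTGES3 the prostaglandin E synthases. PTGER2 and PTGER4 encode the prostaglandin E2 receptors EP2 and EP4, SLCO2A1 the prostaglandin uptake carrier, and HPGD the dehydrogenase that inactivates prostaglandins. The family was proposed with results of these data in view, because PTGS1 stood among the large differences under RMC-7977. The PTGS1 differences between RMC-7977 and the other groups, and between any drug and Vehicle, are therefore given as a description with no p-value. Of the 10 genes, 9 had enough counts to be tested, among 17652 genes tested in all, and SLCO2A1 had not.

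There were 22 tumours. The labels give 1 line and the genotype WT for all of them, and every group was dosed orally for 3 days once tumours had reached about 300 mm³. The control group of 6 tumours received Vehicle. A group of 4 tumours received RMC-7977 at 10 mg/kg, an inhibitor of the active, GTP-bound RAS proteins. Another 4 received RMC-4550 at 30 mg/kg, which inhibits the phosphatase SHP2 upstream of RAS. The MEK inhibitors were trametinib at 0.3 mg/kg and cobimetinib at 3 mg/kg, with 4 tumours each. Doses differ between the drugs, so each difference between drugs holds for these doses only. The series is titled for RIT1, a RAS-related GTPase, as a target in this cancer. All tumours come from a single line, and the sources used here do not give the host animal or say that each tumour came from a separate one. The p-values thus cover only the variation among these samples, part of which may be technical.

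Prostaglandins are short-lived lipid signals. Arachidonic acid is cut from membranes by cytosolic phospholipase A2, oxidised by a cyclooxygenase to prostaglandin H2, and turned by a terminal synthase into prostaglandin E2 or another prostanoid. Prostaglandin E2 acts on neighbouring cells through EP receptors and is cleared by uptake and oxidation. COX-1 is often described as constitutive and COX-2 as inducible, and COX-2 and prostaglandin E2 are widely studied in lung adenocarcinoma.

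Total counts per library were 7761987 to 17265754. The epithelial markers of the tumour line were present: all 8 genes of a list with EPCAM and KRT8 were tested and summed to 3160 to 6240 CPM per tumour (counts scaled to a common library size). Some libraries stood apart. In Trametinib replicate 4 and RMC-7977 replicate 3, 1.99% and 5.02% of detected genes had only 1 or 2 counts, against 13.4% to 22.9% in the other 20. The median correlation of a library with the others was 0.751 for Trametinib replicate 4 and 0.933 to 0.977 elsewhere. The deviation of a library from the gene means also followed GC content, with a rank correlation of −0.538 in the first Vehicle tumour, −0.584 in the first RMC-4550 tumour (replicate 1 of each) and 0.307 to 0.426 in the other Vehicle tumours. It was also negative in Trametinib replicates 1 (−0.484) and 2 (−0.413), RMC-7977 replicate 3 (−0.424) and Cobimetinib replicate 3 (−0.231).

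Under RMC-7977 the level of PTGS1 was 2.78 ± 0.63 CPM (SD, n = 4) against 22 ± 7.84 under Vehicle (SD, n = 6), while PTGS2 read 15.8 ± 1.71 against 21.9 ± 8.12. None of the 8 tested members other than PTGS1 passed the threshold of 0.05 on the Benjamini-Hochberg adjusted p in any of the 10 comparisons. Among the differences described are those of PTGER4, with a higher mean under RMC-7977 than under Vehicle, PTGES2, with a lower mean there, and HPGD and PLA2G4A, with higher means under RMC-4550.

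Counted over the 9 tested genes, 1 passed in RMC-7977 against Vehicle, which was PTGS1, where 0.748% of all tested genes passed. The count was 0 in RMC-4550 against Vehicle, where 0.0283% of all genes passed, and 0 in trametinib and in cobimetinib against Vehicle, where 0% of all genes passed (edgeR quasi-likelihood test). At an unadjusted p under 0.05 the counts were 3, 2, 1 and 1 of 9 in these 4 comparisons, beside 10.3%, 4.24%, 18.8% and 3.3% of all genes. Of the 8 members other than PTGS1 the shares were 25%, 25%, 0% and 0%. DESeq2 called 2, 0, 1 and 0 of the 9 genes, beside 3.04%, 0.198%, 2.09% and 0.00567% of all genes it was run on. In the pairs of drugs PTGS1 alone passed in RMC-7977 against RMC-4550 (0.0906% of all genes), against trametinib (0.408%) and against cobimetinib (0.278%). Of the 9 genes 5, 2 and 3 had an unadjusted p under 0.05 there, beside 7.39%, 18.2% and 7.45% of all genes, and DESeq2 called 1, 2 and 3, beside 0.884%, 4.32% and 1.59%. The count of 1 against trametinib was 0 without any 1 of the 4 RMC-7977 tumours. No member passed in the other pairs, where 0% (RMC-4550 against trametinib), 0.0283% (RMC-4550 against cobimetinib) and 0% (trametinib against cobimetinib) of all genes did. In those 3 pairs 3, 4 and 0 members had an unadjusted p under 0.05, beside 12.3%, 6.2% and 16.7% of all genes, and DESeq2 called 0, 1 and 0, beside 0.946%, 0.674% and 0.827%. Because PTGS1 was chosen with results of these data in view, nothing is read from its own part in these counts, those against Vehicle included. The median log2 fold change of the 9 genes against Vehicle was −0.23 with RMC-7977, 0.37 with RMC-4550, −0.05 with trametinib and −0.07 with cobimetinib. For all tested genes it was −0.01 under each drug, and for the 8 members other than PTGS1 −0.11, 0.39, −0.003 and −0.06 in the same order. The 4 comparisons share the Vehicle tumours, so their values are not independent of each other.

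**Figure D1:**
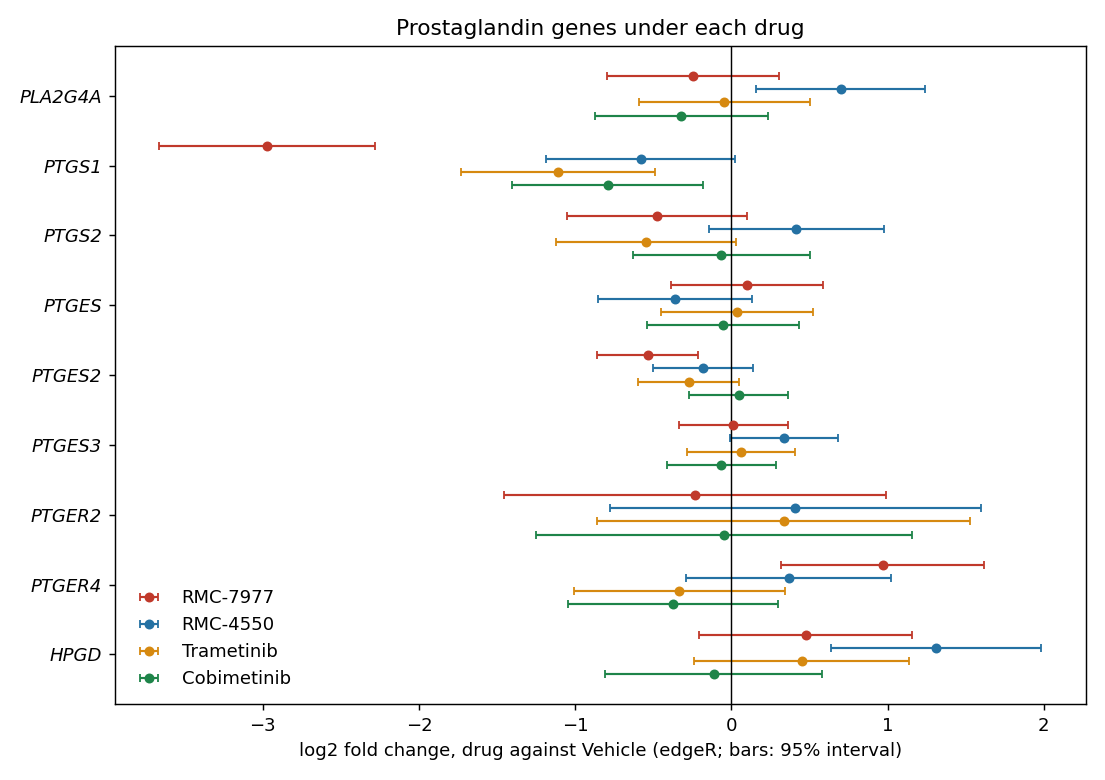
Log2 fold change of the 9 tested prostaglandin genes (rows) for each drug against Vehicle, as points with 95% confidence intervals from the edgeR fit. PTGS1 under RMC-7977 lies at −2.97 with an interval of −3.67 to −2.28, apart from every other point.

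Release of arachidonic acid is represented by PLA2G4A (ENSG00000116711, hg38 chr1:186828953-186988981, plus strand), which encodes cytosolic phospholipase A2 alpha, an enzyme that ERK phosphorylates. Under Vehicle it read 164, 64.9, 60.8, 91.4, 63.6 and 101 CPM. The RMC-4550 tumours read 200, 119, 144 and 128 CPM, those on RMC-7977 62.4, 77.7, 96.7 and 69.8, those on trametinib 107, 91.7, 65.1 and 88.3, and those on cobimetinib 68.5, 51.1, 109 and 62.6. All 4 RMC-4550 tumours lay above all tumours of the other 3 drugs, and 5 of the 6 Vehicle tumours lay below every RMC-4550 tumour. In edgeR the log2 fold change of RMC-4550 against Vehicle was 0.70 ± 0.26 (SE), with an adjusted p of 0.986. PLA2G4A differed by −0.95 ± 0.29 in RMC-7977 against RMC-4550 (adjusted p = 0.285), where the RMC-7977 tumours lay below all RMC-4550 tumours for 4.21% of all genes. RMC-4550 stood 0.75 ± 0.29 above trametinib (adjusted p = 0.304, all tumours above for 2.26% of genes) and 1.02 ± 0.29 above cobimetinib (adjusted p = 0.295, all above for 4.4%). None of these passed the threshold. The highest Vehicle tumour and the highest RMC-4550 tumour were the 2 libraries with the lowest rank correlation with GC content. The value against Vehicle was 0.95 without Vehicle replicate 1, 0.51 without RMC-4550 replicate 1 and 0.57 with an offset for GC content. That offset, chosen after seeing the data, brought RMC-7977 against RMC-4550 past the threshold at −0.88 (adjusted p = 0.0396). The share of all genes that passed with the offset is not given here, so nothing is read from this pass.

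The cyclooxygenases follow. PTGS1 (ENSG00000095303, hg38 chr9:122370530-122395703, plus strand) encodes COX-1 and PTGS2 (ENSG00000073756, hg38 chr1:186671791-186680427, minus strand) encodes COX-2. PTGS2 and PLA2G4A lie near each other on chromosome 1. The sequences before their transcription starts are shown because both enzymes carry out the same reaction, while the RMC-7977 tumours stood apart from Vehicle in PTGS1 and overlapped it in PTGS2. They are the 250 bases before each RefSeq start (GRCh38.p14), written 5′ to 3′ on the strand of the gene, for both RefSeq starts of PTGS1, 4769 bases apart, and the start of PTGS2. Capitals mark matches to 5 motifs searched on both strands: AP-1 (TGANTCA), ETS (CCGGAAG), CRE (TGACGTCA), SP1 (GGGCGG) and the TATA box (TATAAA).
PTGS1 first start, chr9:122370283-122370532, plus strand: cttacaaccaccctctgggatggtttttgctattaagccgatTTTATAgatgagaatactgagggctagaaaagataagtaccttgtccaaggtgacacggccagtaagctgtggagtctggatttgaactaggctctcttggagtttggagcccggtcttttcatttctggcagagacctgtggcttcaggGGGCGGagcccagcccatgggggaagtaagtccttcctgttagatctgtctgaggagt
PTGS1 second start, chr9:122375052-122375301, plus strand: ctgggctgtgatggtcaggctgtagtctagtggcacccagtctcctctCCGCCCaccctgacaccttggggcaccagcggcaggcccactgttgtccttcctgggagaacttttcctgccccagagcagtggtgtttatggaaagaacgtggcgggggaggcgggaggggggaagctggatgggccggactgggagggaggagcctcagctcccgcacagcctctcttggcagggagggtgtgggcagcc
PTGS2, chr1:186680424-186680673, minus strand: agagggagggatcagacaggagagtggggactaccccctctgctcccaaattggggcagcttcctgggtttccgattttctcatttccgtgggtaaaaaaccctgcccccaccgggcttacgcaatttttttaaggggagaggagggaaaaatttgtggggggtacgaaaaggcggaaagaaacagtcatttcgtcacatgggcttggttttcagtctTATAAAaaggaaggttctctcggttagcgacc

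The PTGS2 sequence held the TATA box at 32 to 27 bases before the start and none of the other 4 motifs. The window before the first PTGS1 start held an SP1 match at 58 to 53 bases and a TATA box match on the opposite strand at 208 to 203 bases. Before the second start there was 1 SP1 match, on the opposite strand at 202 to 197 bases, in a window of 65.2% GC against 49.6% for the first and 50.4% for PTGS2. The median of all promoters was 58% GC. Among 35116 RefSeq promoter windows of the same length, 10.7% held the TATA box, 42.6% SP1, 6.57% AP-1, 8.52% ETS and 1.65% CRE. Of the 10 genes 9 had a window in the table, with 13 starts between them. Of these 13, the ETS letters stood only before 1 HPGD start, and the AP-1 and CRE letters before none. A match describes the letters only, and their absence says only that these letters are not in this window.

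The PTGS1 counts behind the difference were 24 to 53 reads per tumour under RMC-7977 and 149 to 486 under Vehicle. In CPM the 6 Vehicle tumours read 13.6, 13.3, 24.8, 27.8, 19.6 and 32.7, and the 4 RMC-7977 tumours 2.29, 2.38, 2.81 and 3.67. The lowest tumour of any other group read 7.36 CPM, above all 4 RMC-7977 tumours. RMC-4550 tumours read 8.26, 13.3, 18.6 and 18.6 CPM, trametinib tumours 10.0, 7.36, 13.1 and 10.2, and cobimetinib tumours 14.4, 17.8, 7.75 and 10.8. All 4 trametinib tumours lay below all 6 Vehicle tumours, as did 2 of 4 under RMC-4550 and 2 of 4 under cobimetinib. Such a gap below Vehicle was found for 1.9% of all genes with RMC-7977 and for 0.629% with trametinib. The RMC-7977 tumours lay below those of RMC-4550 for 4.21%, of trametinib for 2.92% and of cobimetinib for 4.73% of all genes.

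The fitted log2 fold change of PTGS1 against Vehicle was −2.97 ± 0.33 (SE) with RMC-7977, with a 95% interval of −3.67 to −2.28, which corresponds to a 7.84-fold lower level. It was −1.11 ± 0.30 under trametinib, −0.79 ± 0.29 under cobimetinib and −0.58 ± 0.29 under RMC-4550. In a fit with the replicate number as a block these 3 were smaller, at −0.78, −0.41 and −0.28, and RMC-7977 was at −2.65. Set directly against the other drugs, PTGS1 under RMC-7977 differed by −2.39 ± 0.34 from RMC-4550, by −1.86 ± 0.34 from trametinib and by −2.18 ± 0.34 from cobimetinib. The order of the group means was thus Vehicle, RMC-4550, cobimetinib, trametinib and RMC-7977. Neighbours in the middle of that order were not separated by more than their spread. RMC-4550 differed from cobimetinib by 0.21 (95% interval −0.44 to 0.87, adjusted p = 0.965) and from trametinib by 0.53 (−0.13 to 1.19, adjusted p = 0.534), and trametinib from cobimetinib by −0.32 (−0.98 to 0.35, adjusted p = 0.619). With 1 tumour left out at a time the first of these ran from 0.00583 (without Cobimetinib replicate 3) to 0.396 (without Cobimetinib replicate 2), and the last from −0.524 to −0.101 (without the same tumours).

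In PTGS2 every treated group overlapped Vehicle. It read 31.4, 15.0, 16.0, 23.1, 14.3 and 31.9 CPM under Vehicle and 17.7, 16.2, 15.5 and 13.6 CPM under RMC-7977. RMC-4550 tumours read 40.2, 31.7, 15.1 and 30.2 CPM, trametinib tumours 20, 14.6, 16.7 and 8.48, and cobimetinib tumours 21.5, 18.7, 24.7 and 18.9. All 4 RMC-7977 tumours lay below all cobimetinib tumours, as was the case for 4.73% of all genes, with a log2 fold change of −0.41 ± 0.30 (adjusted p = 0.895). Vehicle itself split into tumours near 15 CPM and tumours from 23.1 to 31.9 CPM. Against Vehicle the log2 fold change was −0.48 ± 0.28 under RMC-7977 (95% interval −1.05 to 0.10, adjusted p = 0.606) and −0.55 ± 0.28 under trametinib (−1.13 to 0.03, adjusted p = 0.288). It was 0.41 ± 0.27 under RMC-4550 (−0.15 to 0.98, adjusted p = 0.986), or 0.21 without RMC-4550 replicate 1, and −0.07 ± 0.27 under cobimetinib (−0.63 to 0.50, adjusted p = 1). The widest gaps were between drugs, −0.89 ± 0.30 in RMC-7977 against RMC-4550 (adjusted p = 0.357) and 0.96 ± 0.30 in RMC-4550 against trametinib (adjusted p = 0.212), and neither passed. Without Trametinib replicate 4, RMC-7977 replicate 3, Vehicle replicate 1 and RMC-4550 replicate 1 together, the last was 0.60 and trametinib against Vehicle −0.26. The sign under cobimetinib was not stable: without Vehicle replicate 7 it was 0.08, and 0.06 without Vehicle replicate 1.

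**Figure D2:**
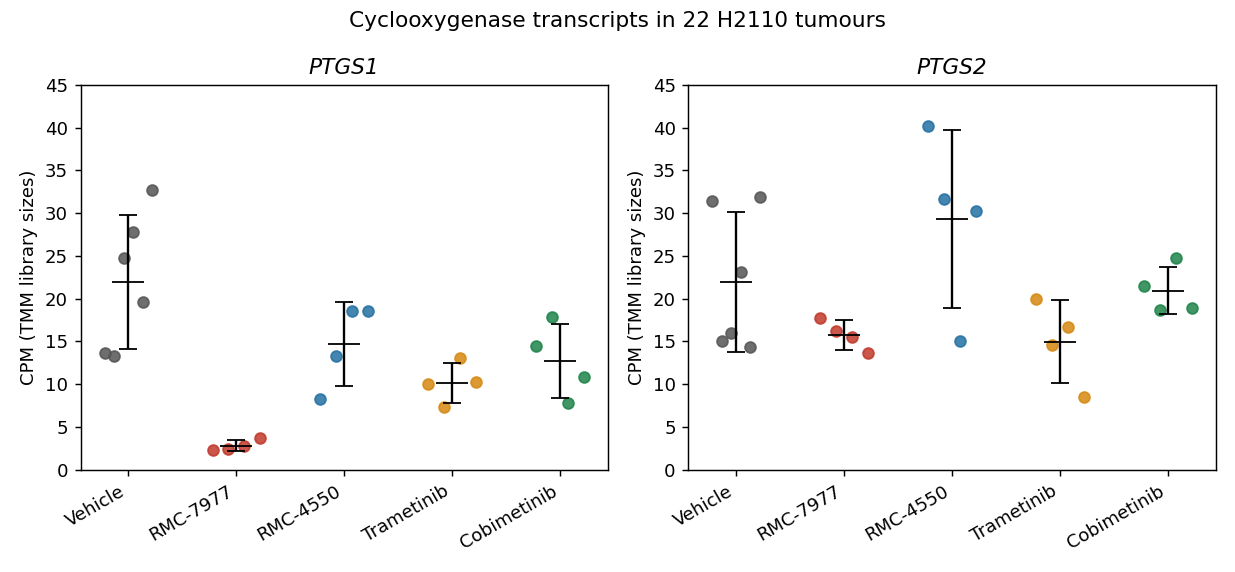
Level of PTGS1 (left) and PTGS2 (right) in each of 22 tumours, in CPM with TMM library sizes. Points are tumours, and bars are the mean and SD of the group. The 4 RMC-7977 tumours sit at 2.29 to 3.67 CPM for PTGS1 and at 13.6 to 17.7 CPM for PTGS2.

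To compare the 2 enzymes, counts were also divided by gene length (RPKM). By this scale PTGS1 made up 47.9% ± 10.8 (SD, n = 6) of the cyclooxygenase level under Vehicle and 14.0% ± 4.06 (SD, n = 4) under RMC-7977. The Vehicle tumours ranged from 28.3% to 58.6% and the RMC-7977 tumours from 10.5% to 19.7%, without overlap. The share was 33.0% ± 15.6 with RMC-4550, 39.2% ± 10.0 with trametinib and 35.2% ± 10.0 with cobimetinib, all overlapping Vehicle. The lowest Vehicle value belonged to replicate 1 and the lowest RMC-4550 value, 15.8%, to its replicate 1. The summed level of both genes was 7.96 ± 2.34 RPKM under Vehicle, 3.47 ± 0.22 with RMC-7977, 8.09 ± 1.39 with RMC-4550, 4.59 ± 1.05 with trametinib and 6.17 ± 0.54 with cobimetinib. Since the share rests on PTGS1, it is a description with no test.

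**Figure D3:**
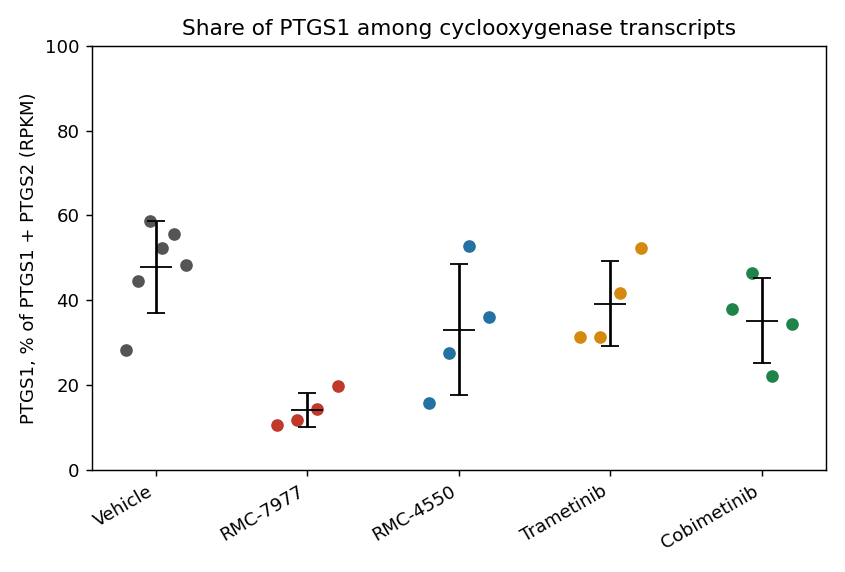
PTGS1 as a percent of PTGS1 plus PTGS2 on the RPKM scale, 1 point per tumour with the mean and SD of each group. RMC-7977 tumours lie between 10.5% and 19.7%, and the lowest Vehicle tumour at 28.3%.

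In bulk tumours fewer cells of a type and less RNA per cell cannot be told apart, and PTGS1 is known from platelets, myeloid cells and endothelium as well as epithelium. The 10 myeloid markers, 4 of them tested, summed to 12 to 27.2 CPM under Vehicle and 7.34 to 11.2 CPM under RMC-7977, without overlap. TYROBP and AIF1 were at 0 in every Vehicle tumour, and CD68, TYROBP and AIF1 in every RMC-7977 tumour. LAPTM5, from this list, passed at −3.75 ± 0.66 (adjusted p = 0.00591), but not in a fit of only these 2 groups (adjusted p = 0.0509). CD14, CSF1R and ITGAM were at −0.96 ± 0.36, −0.66 ± 0.46 and −0.63 ± 1.1 and did not pass (adjusted p = 0.289, 0.71 and 0.941). CD14 had a mean of 12 CPM under Vehicle and 6.16 under RMC-7977, against 5.4 and 0.395 for LAPTM5. The myeloid sum was 9.29 to 15.3 CPM with RMC-4550, 15.6 to 38.7 with trametinib (highest in replicate 4) and 11.4 to 22.5 with cobimetinib. Of 8 endothelial markers, 6 tested, the sum was 103 to 258 CPM under Vehicle and 69.8 to 110 under RMC-7977. Most of it came from EGFL7, CLDN5 and PECAM1, with medians of 50.3, 40.9 and 25.4 CPM over all tumours. Medians of KDR, TIE1, TEK, CDH5 and VWF were 0.034 to 1.14 CPM. Of the 6 tested, 5 had a negative log2 fold change and 1 a positive one (VWF, 0.77 ± 0.71, adjusted p = 0.827). CLDN5 read 81.9 ± 61.5 CPM (SD) under Vehicle and 33.1 ± 21 under RMC-7977, at −1.3 ± 0.58 (adjusted p = 0.411). Under RMC-4550 CLDN5 was at −1.93 ± 0.59 (adjusted p = 0.701). EGFL7 was at −0.15 ± 0.20 with RMC-7977, and only PECAM1 passed there, at −1.71 ± 0.36 (adjusted p = 0.0235). PECAM1 did not pass in a fit of only these 2 groups (adjusted p = 0.0743), without RMC-7977 replicate 1, 2 or 4 (0.121, 0.116 and 0.0973) or without Vehicle replicate 5 or 7 (0.0541 and 0.0533). The 9 mast cell and platelet markers, 2 tested, summed to 6.67 to 18.7 CPM under Vehicle and 8.47 to 10.3 under RMC-7977, with TPSAB1 at 0 in all tumours. Fibroblast markers, 1 of 8 tested, summed to 21.4 to 305 CPM and 91.4 to 213 CPM. The tested one, COL1A1, had a median of 179 CPM over all tumours, against 0 for COL1A2, DCN and LUM. Epithelial markers, 8 of 8 tested, summed to 4870 to 5900 CPM and 4090 to 6240 CPM. The part of these markers in the PTGS1 difference was not tested. The tumours are xenografts of a human line, and reads were counted on the human genome hg38. Marker reads may come from the line itself or from host reads that match human genes. The sums therefore cannot be read as a measure of host cells. A sense intronic gene inside PTGS1, AL162424.1, had 23 reads in all tumours together.

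Among the terminal synthases the highest level per length under Vehicle was that of PTGES, at 85.1 ± 31.9 RPKM, followed by PTGES3 at 52.0 ± 5.54 and PTGES2 at 27.9 ± 5.11. The cyclooxygenases read 4.17 ± 1.54 (PTGS2) and 3.79 ± 1.35 (PTGS1) on the same scale, and PLA2G4A 31.6 ± 13.7. The phospholipase and synthase transcripts thus had higher mean levels per length than the cyclooxygenase transcripts in the Vehicle tumours.

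PTGES (ENSG00000148344, hg38 chr9:129738331-129753047, minus strand) encodes the inducible microsomal prostaglandin E synthase. It read 110 to 266 CPM under Vehicle with a median of 139, 138 to 192 with RMC-7977, 105 to 175 with RMC-4550, 132 to 218 with trametinib and 117 to 184 with cobimetinib. All treated groups overlapped Vehicle, and no comparison reached an unadjusted p of 0.05. The highest value, 266 CPM, belonged to Vehicle replicate 1.

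PTGES2 (ENSG00000148334, hg38 chr9:128120693-128128462, minus strand) encodes a second, membrane-associated synthase. It read 105, 60.7, 83.9, 95.5, 88.5 and 75.2 CPM under Vehicle and 59.9, 58.2, 56.4 and 59.3 CPM under RMC-7977. All 4 RMC-7977 tumours lay below all 6 Vehicle tumours, the nearest Vehicle tumour by less than 1 CPM, a gap found for 1.9% of all genes. Its log2 fold change was −0.54 ± 0.16 (95% interval −0.86 to −0.21), with an adjusted p of 0.119 in edgeR and 0.0178 in DESeq2. Without Vehicle replicate 2 it was −0.63 and passed (adjusted p = 0.0339), and without Trametinib replicate 4, which enters through the shared spread, it was −0.55 (adjusted p = 0.0384). The RMC-4550 tumours read 65.2 to 87.4 CPM and the cobimetinib tumours 77.5 to 103 CPM, all above the RMC-7977 tumours (such gaps: 4.21% and 4.73% of all genes). RMC-7977 differed by −0.35 ± 0.17 from RMC-4550 (adjusted p = 0.672) and by −0.58 ± 0.17 from cobimetinib (adjusted p = 0.18 in edgeR, 0.0238 in DESeq2). With an offset for GC content the log2 fold change against cobimetinib was −0.26. PTGES2 has the highest GC content of the 10 genes, 65.7%. Trametinib tumours, at 60.0 to 81.1 CPM, overlapped Vehicle. They also lay above all RMC-7977 tumours, a gap found for 2.92% of all genes, with 60.0 and 59.9 CPM the nearest values. RMC-7977 differed from trametinib by −0.26 ± 0.17 (adjusted p = 0.408).

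PTGES3 (ENSG00000110958, hg38 chr12:56663341-56688408, minus strand) encodes p23, a co-chaperone of HSP90 that was also described as the cytosolic prostaglandin E synthase. Its level was 151 to 202 CPM under Vehicle, 147 to 229 with RMC-7977, 184 to 288 with RMC-4550, 151 to 223 with trametinib and 139 to 195 with cobimetinib. The largest of its differences, 0.40 ± 0.18 in RMC-4550 against cobimetinib, had an adjusted p of 0.756 and was 0.23 without RMC-4550 replicate 1. PTGES3 has processed pseudogenes, and how the counting handled multi-mapped reads is not given in the sources used here, so its level is uncertain. The small RNA gene RN7SL809P inside it had 220 reads, against 52874 for PTGES3.

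**Figure D4:**
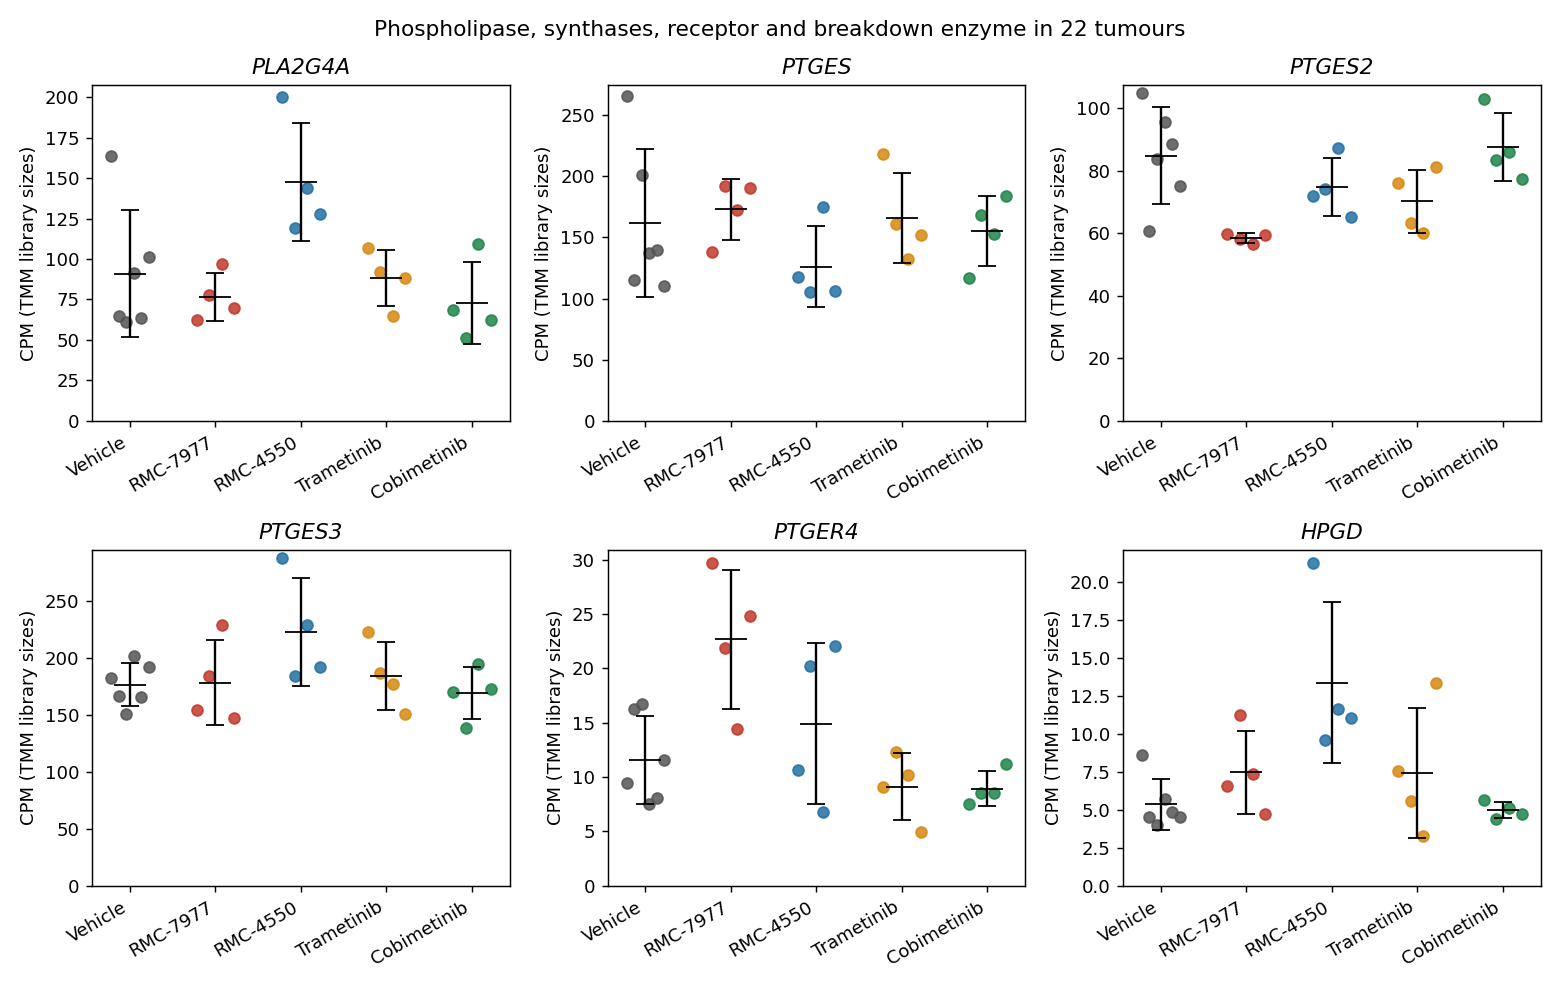
Levels of 6 further genes in each of 22 tumours, in CPM on axes that start at 0, with the mean and SD of each group. PTGES2 under RMC-7977 lies at 56.4 to 59.9 CPM, PTGER4 under RMC-7977 at 14.4 to 29.7 CPM and HPGD under RMC-4550 at 9.59 to 21.2 CPM.

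Of the receptor genes, PTGER4 (ENSG00000171522, hg38 chr5:40679498-40693735, plus strand) was the more abundant, at 2.93 ± 1.03 RPKM under Vehicle against 0.965 ± 0.576 for PTGER2. Both encode receptors that raise cyclic AMP. PTGER4 read 9.41, 16.3, 16.7, 7.49, 8.09 and 11.6 CPM under Vehicle and 29.7, 21.9, 14.4 and 24.8 CPM under RMC-7977. Of the 4 RMC-7977 tumours 3 lay above all Vehicle tumours, and the other, replicate 3, lay among them. The log2 fold change was 0.97 ± 0.31 (95% interval 0.32 to 1.62), with an adjusted p of 0.181. Trametinib tumours read 9.04, 12.3, 10.2 and 4.96 CPM and cobimetinib tumours 7.54, 8.51, 8.5 and 11.2. Each of the 4 RMC-7977 tumours was above each of these 8, as was the case for 3.22% (trametinib) and 5.74% (cobimetinib) of all genes. RMC-7977 stood 1.3 ± 0.36 above trametinib (adjusted p = 0.0897) and 1.34 ± 0.35 above cobimetinib (adjusted p = 0.135). With DESeq2 both passed (adjusted p = 0.02 and 0.0214). Against trametinib PTGER4 also passed without Trametinib replicate 2 (1.48, adjusted p = 0.0464) and without Trametinib replicate 3 (1.34, adjusted p = 0.045). RMC-4550 tumours were the most scattered, at 10.6, 20.2, 6.78 and 22.1 CPM, and stood 0.74 ± 0.35 above cobimetinib (adjusted p = 0.781), or 0.47 without RMC-4550 replicate 4.

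PTGER4 shares its locus with TTC33, which lies on the opposite strand and had 18984 reads in all tumours. The strand setting of the counting is not given in the sources used here, so reads of the 2 genes may be mixed. The log2 fold change of TTC33 in RMC-7977 against Vehicle was 0.27 ± 0.34 (adjusted p = 0.898), beside 0.97 for PTGER4. It was 0.60 without Vehicle replicate 1 and 0.10 without RMC-7977 replicate 3.

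PTGER2 (ENSG00000125384, hg38 chr14:52314305-52328606, plus strand) had 0 to 75 reads per tumour. Its levels were 1.49 to 5.23 CPM under Vehicle, 1.11 to 3.24 with RMC-7977, 1.63 to 5.52 with RMC-4550, 0 to 5.67 with trametinib and 1.63 to 2.92 with cobimetinib. In edgeR no comparison had an unadjusted p under 0.05. With limma library weights, which count libraries far from their group less, 3 comparisons passed: trametinib against Vehicle (1.25, adjusted p = 0.00203), RMC-7977 against trametinib (−1.35, adjusted p = 0.00646) and trametinib against cobimetinib (1.18, adjusted p = 0.0068). Weights called 44.6%, 30% and 37.4% of all genes in these 3 comparisons, so such a pass is not particular to PTGER2. The value of 0 was in Trametinib replicate 4, where a count of 0 allows a level of up to 0.48 CPM (3 counts of the library, counting error only). The other 3 trametinib tumours had 3.93 ± 1.70 CPM (SD, n = 3).

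Uptake and oxidation end the signal. SLCO2A1 (ENSG00000174640, hg38 chr3:133928145-134052184, minus strand), the uptake carrier, had 98 reads in all tumours together and none in 8 of them. A count of 0 allows a level of up to 0.171 to 0.48 CPM, depending on the library. In 21 tumours it read at most 0.686 CPM. Of the 98 reads, 45 were in Trametinib replicate 4, at 7.2 CPM, and without that library the trametinib mean was 0.385 ± 0.252 CPM (SD, n = 3) in place of 2.09 ± 3.41 (SD, n = 4). It was not tested.

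HPGD (ENSG00000164120, hg38 chr4:174490177-174523154, minus strand) encodes 15-hydroxyprostaglandin dehydrogenase, the enzyme that starts prostaglandin E2 breakdown. It read 8.59, 4.51, 3.98, 5.71, 4.87 and 4.52 CPM under Vehicle and 21.2, 9.59, 11.6 and 11 CPM under RMC-4550. All 4 RMC-4550 tumours lay above all 6 Vehicle tumours, as was the case for 0.952% of all genes. The log2 fold change was 1.31 ± 0.32 (95% interval 0.64 to 1.98), a 2.48-fold difference with an adjusted p of 0.421. Replicate 1 was the highest tumour in both groups, and without RMC-4550 replicate 1 the value was 0.99. Cobimetinib tumours read 5.60, 4.41, 5.10 and 4.70 CPM, all below the RMC-4550 tumours, a gap found for 4.4% of all genes. RMC-4550 stood 1.43 ± 0.37 above them (adjusted p = 0.214 in edgeR, 0.0336 in DESeq2). This difference passed without Trametinib replicate 4 (1.40, adjusted p = 0.0397). Against RMC-7977, whose tumours read 6.58, 11.2, 7.31 and 4.70 CPM, the difference RMC-7977 minus RMC-4550 was −0.84 ± 0.36 (adjusted p = 0.591), or −0.52 without RMC-4550 replicate 1. Trametinib tumours read 7.53, 5.58, 3.26 and 13.3 CPM, the last in replicate 4, and RMC-4550 stood 0.86 ± 0.36 above them (adjusted p = 0.335). That value was 1.3 without Trametinib replicate 4, 0.54 without Trametinib replicate 3 and 0.49 without RMC-4550 replicate 1.

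A wider list of 58 eicosanoid genes fixed beside the 10 held 36 tested genes: enzymes that release or recycle arachidonic acid (14), other terminal synthases (5), other receptors and their partners (2), other export and breakdown enzymes (7) and the lipoxygenase and leukotriene branch (8). None of the 36 passed the threshold in any of the 10 comparisons (edgeR). Against Vehicle, 7, 4, 7 and 1 of them had an unadjusted p under 0.05 for RMC-7977, RMC-4550, trametinib and cobimetinib, beside 10.3%, 4.24%, 18.8% and 3.3% of all genes, and DESeq2 called 0, 0, 2 and 0. In RMC-7977 against RMC-4550, trametinib and cobimetinib the unadjusted counts were 8, 8 and 0, beside 7.39%, 18.2% and 7.45% of all genes, and DESeq2 called 3, 2 and 0. In RMC-4550 against trametinib, RMC-4550 against cobimetinib and trametinib against cobimetinib they were 6, 5 and 10, beside 12.3%, 6.2% and 16.7%, with 1, 0 and 0 called by DESeq2. The shares of all genes that DESeq2 called are those given above. The median log2 fold changes of the list against Vehicle were 0.04, 0.01, 0.11 and 0.03.

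Most other prostanoid receptor genes were at very low levels. PTGER1 and PTGER3 (the prostaglandin E2 receptors EP1 and EP3), PTGDR, PTGDR2, PTGFR and PTGIR all had too few counts to be tested, with Vehicle means of 0 to 0.0936 CPM, and PTGDR had no read in any of the 22 tumours. The prostaglandin D synthases PTGDS and HPGDS and the prostacyclin synthase PTGIS were also untested, at 0.104, 0.0131 and 0.0286 CPM under Vehicle. Aldo-keto reductases that act on prostaglandins were abundant, with Vehicle means of 4540 CPM for AKR1C2, 603 for AKR1C1 and 467 for AKR1C3, the prostaglandin F synthase. These AKR1C genes are close paralogs, so counts may be split among them. PTGR1, which encodes the reductase that follows HPGD in prostaglandin breakdown, read 281 CPM.

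The following genes of the wider list were singled out after their values were seen. PTGR1 read 210 ± 23.4 CPM under RMC-7977 and 375 ± 58.3 under RMC-4550, −0.83 ± 0.21 in the direct comparison (adjusted p = 0.17). AKR1C1 read 370 ± 108 and 957 ± 317 CPM, −1.37 ± 0.30 (adjusted p = 0.0851), and passed without Trametinib replicate 4 (adjusted p = 0.0235). With DESeq2 both passed (adjusted p = 0.0126 for PTGR1 and 0.00379 for AKR1C1). Of the 7 export and breakdown genes, 6 had a negative log2 fold change under RMC-7977 and 5 a positive one under RMC-4550, with medians of −0.40 and 0.33 against Vehicle. Under cobimetinib 6 were negative as well (median −0.23), and under trametinib 3 (median 0.06). The widest trametinib value, 3.36 ± 0.99 for the thromboxane receptor gene TBXA2R (adjusted p = 0.106), rested on 1 tumour. TBXA2R read 25.1 CPM in Trametinib replicate 4 and 0.0753, 0.177 and 0.244 CPM in the other 3, which lay below all Vehicle tumours (0.274 to 0.972 CPM). In those 3 libraries 3 counts equal 0.226, 0.266 and 0.244 CPM, and in Vehicle replicate 1, the lowest, 0.274 CPM. This gap thus lies at a few reads per tumour. Without Trametinib replicate 4 the value was −1.84 (adjusted p = 0.672).

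**Figure D5:**
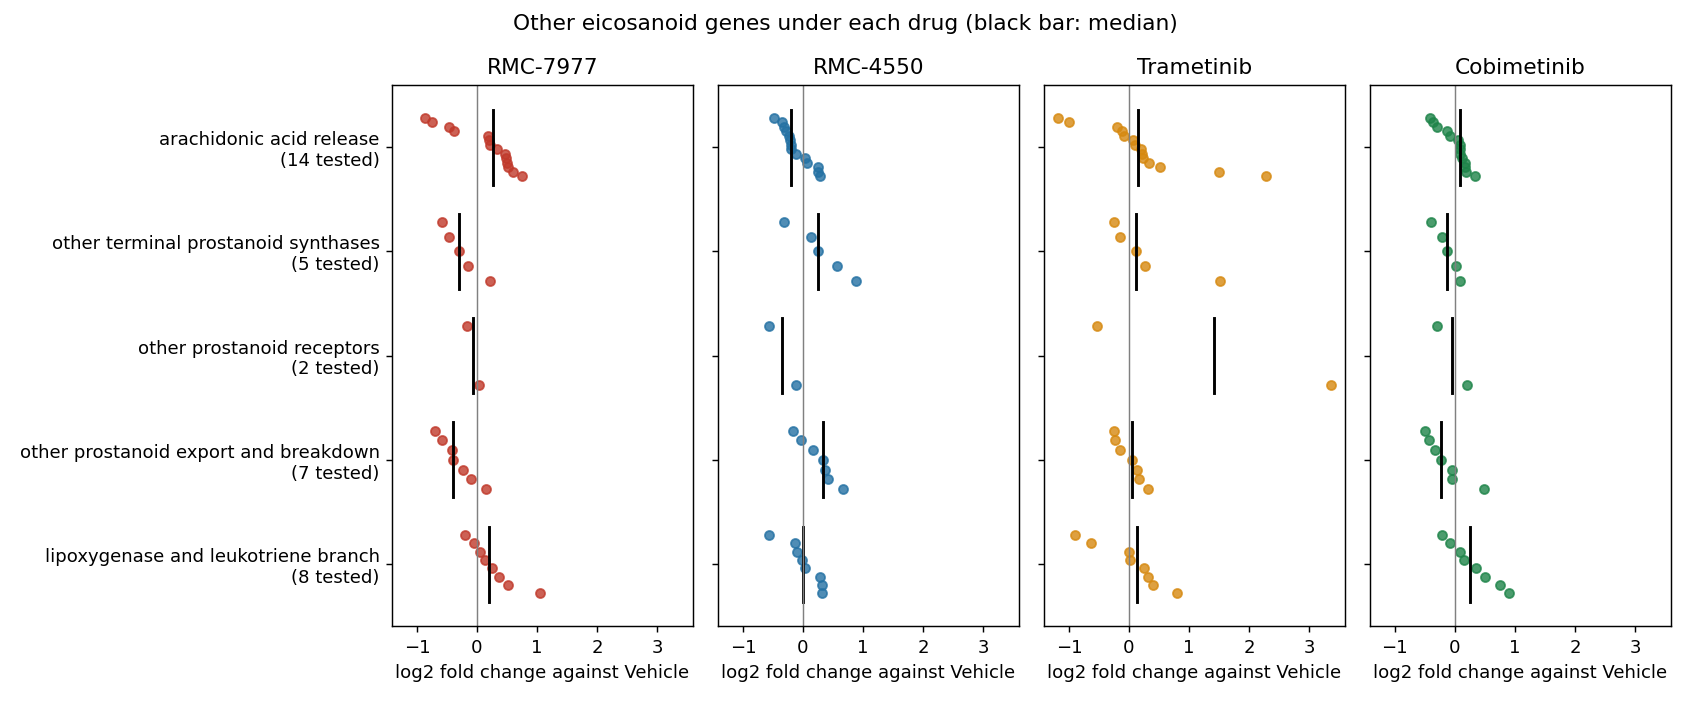
Log2 fold change against Vehicle (x axes) of the 36 tested genes of the wider eicosanoid list under each drug, in 5 groups (rows). Points are genes and black bars medians. Export and breakdown genes have a median of −0.40 under RMC-7977 and 0.33 under RMC-4550.

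Genes with a similar pattern were found by Pearson's r of log2 CPM over the 22 tumours among 11042 protein-coding genes. Tumours share groups and libraries, so r is a description with no p. For PTGS1 they were PAPPA (r = 0.884), a metalloproteinase, CD320 (0.864), the transcobalamin receptor, HAL (0.864), histidine ammonia-lyase, THBS1 (0.861), thrombospondin 1, and the ETS factor gene ETV4 (0.853). Without the RMC-7977 tumours, r over the other 18 was 0.635 for PAPPA, 0.584 for CD320, 0.667 for HAL, 0.866 for THBS1 and 0.626 for ETV4. For PTGS2 the closest were VPS8 (0.777), ASPH (0.775), MBNL2 (0.767), WBP4 (0.766) and HIF1A (0.763). Over the 21 tumours without Trametinib replicate 4 these were 0.698, 0.696, 0.675, 0.678 and 0.703. For HPGD they were AKR1C3 (0.849), MB (0.849), H3F3A (0.826), FTL (0.823) and ASF1A (0.813).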

How the data were processed

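RNA was measured in 22 tumours, and the deposited values are raw read counts per gene for each tumour. According to the labels, libraries were strand-specific. Per the submitters' processing notes the reads went through fastp and, on the genome hg38, HISAT2 2.0.5 and featureCounts 1.5.0-p3, and the notes also name edgeR 3.22.5 and DESeq2 1.20.0. The strand setting, the handling of multi-mapped reads and host read removal could shift counts of overlapping or similar genes and were not given in the sources used here.

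In R (4.3.3), edgeR (4.0.16) filtered genes (minimum count 10), scaled libraries by TMM and fitted a robust quasi-likelihood model with 1 mean per group to all 22 tumours. The 10 comparisons used 2-sided tests with Benjamini-Hochberg adjustment over 17652 genes, at a threshold of 0.05. CPM used TMM library sizes, log2 CPM a prior count of 2, and RPKM the gene lengths of the deposited table. The biological coefficient of variation was 0.3684. Depth per library is in the results, and intervals from counts cover counting error only. The pipeline was tested on simulated data.

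The members and lists were chosen with earlier results of these data known. All 10 members are named. Of the wider list any gene past the threshold was to be named, and the 5 protein-coding genes with a mean log2 CPM of at least 2 that were most correlated with PTGS1, PTGS2 and HPGD. PLAAT3 and PTGR3 were matched by gene identifier. Promoter sequences are from RefSeq. Alternatives were limma (3.58.1) library weights, DESeq2 (1.42.0), scaling by RLE or by library size, other filters, fits of only the groups compared, a block for the replicate number, libraries left out and, added after seeing the data, an offset for GC content. As a check of pairing, deviations from the group means were correlated between same-numbered tumours. For Vehicle and RMC-4550 the 3 values were 0.1704 to 0.7109, and for Vehicle and trametinib 0.1362 to 0.2021. They were −0.2301 to 0.03095 for Vehicle and RMC-7977 and −0.2574 to 0.1254 for Vehicle and cobimetinib. Between drugs they ran from −0.3909 to 0.3756. The value of 0.7109 joined the replicate 1 tumours, whose rank correlations with GC content were −0.538 and −0.584. What the number means is not stated in the labels.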

Additional observations from a re-analysis of the deposited data

Results flagged for a closer look

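PTGER2 in Vehicle replicate 2 read 5.23 CPM, against 1.49 to 2.3 CPM in the other 5 Vehicle tumours. Its gap to the nearest tumour was 0.664 of the range of the group, above the critical value of 0.625 for 6 tumours. It was the only such value in 45 sets of tumours (9 genes in 5 groups), where chance gives about 1 in 20.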

How the results depend on the processing

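The count of prostaglandin genes past the threshold moved with several settings. In RMC-7977 against Vehicle it was 1, and 2 with DESeq2 or without the 4 libraries apart (Trametinib replicate 4, RMC-7977 replicate 3, Vehicle replicate 1, RMC-4550 replicate 1) and 4 with library weights. In trametinib against Vehicle it was 0, and 1 with DESeq2 or without those 4 libraries, PTGS1 in both, and 4 with weights. As above, nothing is read from the part of PTGS1 in any of these counts, since it was chosen with these data in view. Weights gave 1 in RMC-4550 and in cobimetinib against Vehicle, 2 in RMC-7977 against RMC-4550, 4 in RMC-4550 against trametinib, 2 in RMC-4550 against cobimetinib and 4 in trametinib against cobimetinib. The GC offset gave 2 in RMC-7977 against RMC-4550. In RMC-7977 against trametinib the count of 1 became 2 with DESeq2 or without the 4 libraries, 3 with weights, and 0 with only the 2 groups compared or without the 2 libraries with few low counts. Against cobimetinib it became 3 with DESeq2, with weights or without the 4 libraries, and 2 with only the 2 groups or without the 2 libraries. RMC-4550 against cobimetinib gave 1 with DESeq2, without the 2 and without the 4 libraries. With 1 tumour left out at a time the counts were 1 to 2 in RMC-7977 against Vehicle (2 without Vehicle replicate 2 or Trametinib replicate 4), 0 to 1 in trametinib against Vehicle (1 without Vehicle replicate 1 or Trametinib replicate 3), 0 to 2 in RMC-7977 against trametinib (0 without any 1 RMC-7977 tumour, 2 without Trametinib replicate 2 or 3) and 0 to 1 in RMC-4550 against cobimetinib (1 without Trametinib replicate 4). The cause was not tested. Of all genes weights called 16.7%, 0.64%, 44.6% and 2.27% against Vehicle (RMC-7977, RMC-4550, trametinib, cobimetinib), 5.31%, 30% and 8.7% in RMC-7977 against the other 3 drugs in that order, 21.1% and 3.51% in RMC-4550 against trametinib and cobimetinib, and 37.4% in trametinib against cobimetinib. Without the 4 libraries 6.38% of all genes passed in RMC-7977 and 15.1% in trametinib against Vehicle, 5.3% in RMC-7977 against trametinib, 3.79% in RMC-7977 and 0.901% in RMC-4550 against cobimetinib. Such a share is not given for the GC offset, only the 2 groups, without the 2 libraries or with 1 tumour left out. The counts under those settings are a description only. As a description, PTGS1 in RMC-7977 against Vehicle ranged from −3.22 to −2.65.

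With the replicate number as a block, RMC-7977 against trametinib gave 0 (PTGS1 at −1.87), and no other count changed, those against Vehicle included. PTGS2 in cobimetinib against Vehicle turned to 0.16 with the block, to 0.0511 without the 4 libraries, and ran from −0.153 to 0.0834 with 1 tumour left out. TBXA2R in trametinib against Vehicle turned to −1.66 with weights, −1.82 without the 2 and −1.97 without the 4 libraries, and ran from −1.84 to 3.9 with 1 tumour left out. PTGER2 ran from −0.19 to 0.694 in trametinib against Vehicle and from −0.141 to 0.728 in trametinib against cobimetinib, lowest without Trametinib replicate 2. No other of the 41 log2 fold changes followed here reversed. These were PTGS1, PTGS2 against Vehicle, members with an unadjusted p under 0.05 and some further genes, so most weaker differences are not covered. LAPTM5 and PECAM1 in RMC-7977 against Vehicle did not pass with the block (adjusted p = 0.161 and 0.596). Low counts limit PTGER2, SLCO2A1 and TBXA2R.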
